A study of Mus musculus with 3 samples.

Results

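The 9 genes described here encode mitochondrial fatty acid oxidation and its control by malonyl-CoA: Mlycd, Acacb, Cpt1a, Cpt2, Acadm, Acadl, Acadvl, Hadha and Hadhb. They were picked by name with earlier results of these libraries known, and found by their Entrez gene numbers. All 9 were listed in each of the 3 libraries, among 17997 genes listed in all. The cells were 46C mouse embryonic stem cells (strain 129; a line with a fluorescent protein knocked in at Sox1), grown in serum and leukemia inhibitory factor on gelatin, and their total RNA was sequenced. The groups are Lef1 P5 (cells given Lef1, passage 5), Lef1 P2 (cells given Lef1, passage 2) and the vector control (cells given the empty PB vector, passage 2), each with n = 1 library. With no replicate there is no test and no p-value. The comparisons describe these libraries, and 95% intervals in parentheses cover counting error only. Whether the cells of a group were 1 clone or a mixed population is not given in the labels, and Lef1 P5 differs from the vector control in passage as well as in Lef1.

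Fatty acids are burnt in mitochondria by beta-oxidation, which shortens an acyl chain step by step to acetyl-CoA. Long chains enter only as carnitine esters, made by carnitine palmitoyltransferase 1 at the outer membrane, and malonyl-CoA blocks that enzyme. Acetyl-CoA carboxylases make malonyl-CoA and malonyl-CoA decarboxylase removes it, so that the balance between them helps set how readily long chains enter. Embryonic stem cells in serum are known for strong glycolysis beside mitochondrial oxidation.

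The expected counts summed to 9380813 in Lef1 P5 and 9170554 in Lef1 P2, against 9225401 in the vector control. Lef1 itself was at 214 FPKM in Lef1 P5 and 135 FPKM in Lef1 P2, against 1.49 FPKM in the vector control, which follows the labels. The 8 stem cell markers (such as Pou5f1 and Nanog) were at 1 FPKM or more in every library, with sums of 6668 FPKM in Lef1 P5 and 6015 FPKM in Lef1 P2, against 6758 FPKM in the vector control. Most of each sum came from Dppa5a, at 3816, 3818 and 3771 FPKM in the same order. As fractions of the vector control, Lef1 P2 had Utf1 at 0.514, Pou5f1 at 0.620, Sox2 at 0.757 and Zfp42 at 0.773. Esrrb was at 0.933, Tdgf1 at 0.960, Dppa5a at 1.01 and Nanog at 1.05. The 8 primitive endoderm markers (Gata4, Gata6, Sox17, Pdgfra, Dab2, Col4a1, Lama1 and Lamb1) summed to 292 FPKM in Lef1 P5 and 1092 FPKM in Lef1 P2, against 82.2 FPKM in the vector control. All 8 were at 1 FPKM or more in both Lef1 libraries, and 6 of 8 in the vector control, with none at 0. Markers of hepatocytes, muscle and adipocytes were nearly absent. The 5 hepatocyte markers summed to at most 0.710 FPKM in any library with Alb, Ttr and Afp not listed (taken as 0), the 5 muscle markers to at most 1.18 FPKM with at most 1 at 0, and of the 4 adipocyte markers all were at 0 except Adipoq at 0.09 FPKM in Lef1 P5. Trophoblast markers summed to between 11.8 and 16.4 FPKM, most of it from Tfap2c in every library, with Elf5 at 0. Fibroblast markers summed to 7.70 FPKM in Lef1 P5 and 10.5 FPKM in Lef1 P2, against 17.2 FPKM in the vector control. Most of that came from Thy1 (7.21, 9.54 and 15.65 FPKM in the same order), with Lum and Postn at 0 in every library. In whole cultures, fewer cells of a type and less RNA per cell cannot be told apart. A gene was called higher or lower at a 2-fold difference of FPKM + 1, with at least 3 FPKM and 20 reads in the higher library. By this rule 6.49% of the 10651 genes with enough reads were higher and 1.82% lower in Lef1 P2 against the vector control, 1.40% higher and 1.28% lower of 10121 in Lef1 P5 against the vector control, and 1.88% higher and 6.86% lower of 10593 in Lef1 P5 against Lef1 P2. For Lef1 P2 set against the vector control, 78.1% of all called genes were higher as deposited, against 62.3%, 62.5% and 59.5% after scaling by median-of-ratios, by TMM (trimmed means of log ratios) and by quantiles. For Lef1 P5 against Lef1 P2 the higher share was 21.5% as deposited, against 45.8%, 43.4% and 40.8% after the same scalings. The median log2 ratio of the 12894 measured genes (1 FPKM or more in any library) moved by -0.14 in the first of these comparisons under each scaling, and by 0.18, 0.16 and 0.17 in the second.

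Together the 9 genes held 0.0515% of the expected counts in Lef1 P5 and 0.0596% in Lef1 P2, against 0.0504% in the vector control, or 4829 reads in Lef1 P5 and 5465 in Lef1 P2, against 4647 in the vector control. Mlycd had the widest spread. The genes that control or carry out carnitine entry (Mlycd, Acacb, Cpt1a and Cpt2) had their highest level in Lef1 P2, and so did Acadl. Acadvl was at 19.78 FPKM in Lef1 P2 and 19.16 FPKM in the vector control, with overlapping intervals. The sign of that difference turned under median-of-ratios, TMM and quantile scaling (log2 -0.11, -0.11 and -0.06). The trifunctional protein genes Hadha and Hadhb each varied by at most 1.15-fold between libraries. Acadm was highest in Lef1 P5. Of the 9 genes, 1 was highest in Lef1 P5 and 6 in Lef1 P2, against 2 in the vector control. Acadvl, counted for Lef1 P2, and Hadha and Hadhb, counted for the vector control, could not be placed beyond counting error. Among all measured genes 23.2% were highest in Lef1 P5 and 51.5% in Lef1 P2, against 25.3% in the vector control, so a majority highest in Lef1 P2 is also what the libraries show as a whole.

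**Figure D1:**
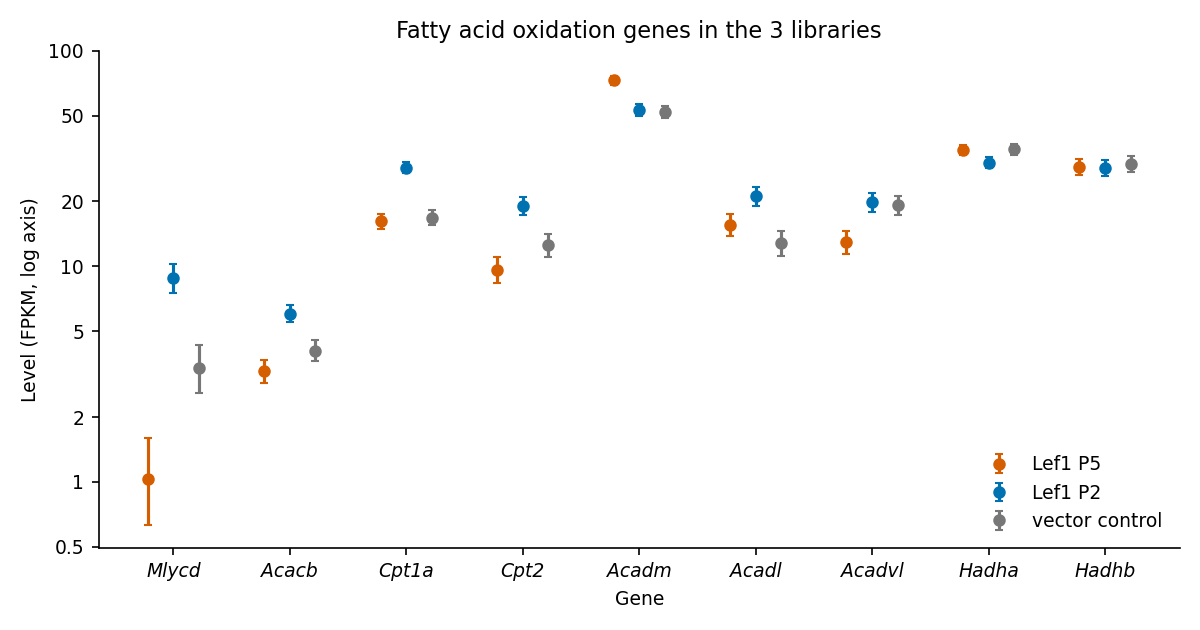
Levels of the 9 fatty acid oxidation genes in FPKM on a log axis, for Lef1 P5, Lef1 P2 and the vector control (1 library each). Points are the deposited values and bars the 95% counting intervals; Mlycd spans 1.03 to 8.81 FPKM, while the bars of the 3 libraries overlap for Hadhb.

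Mlycd (Entrez gene 56690) encodes malonyl-CoA decarboxylase, the enzyme that removes malonyl-CoA and so frees carnitine entry. Its start region is printed because it is the only one of the 9 genes that was called in any comparison. It is the RefSeq window around the start in GRCm38.p6, chr8:119394644-119394943 on the plus strand. Capitals mark CCAAT on either strand.
Mlycd: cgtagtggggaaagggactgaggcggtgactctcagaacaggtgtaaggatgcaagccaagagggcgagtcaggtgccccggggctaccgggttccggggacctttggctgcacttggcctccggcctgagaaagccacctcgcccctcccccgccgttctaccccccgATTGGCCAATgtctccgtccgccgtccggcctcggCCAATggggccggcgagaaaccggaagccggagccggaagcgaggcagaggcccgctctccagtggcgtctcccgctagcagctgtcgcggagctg
The window is 68.0% G and C, against a median of 52.7% over 32851 such windows. CCAAT occurred 3 times in it, with an opposite-strand and a same-strand copy side by side at bases -81 to -72 from the start and a further copy at -46 to -42. On either strand, 37.4% of all windows hold at least 1 CCAAT.

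The level of Mlycd was 1.03 FPKM (0.629 to 1.59) in Lef1 P5 and 8.81 FPKM (7.52 to 10.3) in Lef1 P2, against 3.37 FPKM (2.60 to 4.30) in the vector control. These values rest on 20 reads in Lef1 P5 and 166 in Lef1 P2, against 64 in the vector control. The counting intervals of the 3 libraries did not overlap, and the gene was at its highest in Lef1 P2 and at its lowest in Lef1 P5. In Lef1 P2 it was 2.61-fold (1.95 to 3.55) the level of the vector control and was called higher (log2 1.17), though not under quantile scaling (0.94). That makes 1 of 9 genes called higher and 0 lower in this comparison, where 6.49% of all genes were higher and 1.82% lower. In Lef1 P5 the FPKM ratio to the vector control was 0.306 (0.175 to 0.512) and Mlycd was called lower, so that 0 of 9 were higher and 1 lower, where 1.40% and 1.28% of all genes were. This call rests on 20 and 64 reads, and the empty-vector level lies close to the minimum of 3 FPKM. Both comparisons share the empty-vector library.

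Between the Lef1 libraries, Mlycd had 1.03 FPKM in Lef1 P5 and 8.81 FPKM in Lef1 P2, a ratio of 0.117 (0.0696 to 0.186). It was the 15th lowest log2 ratio of 10593 genes with enough reads, at -2.27 on the log2(FPKM + 1) scale, or -2.10 once the median over all genes is taken off. Here 0 of 9 were called higher and 1 lower, where 1.88% and 6.86% of all genes were. The summed primitive endoderm markers were 292 FPKM in Lef1 P5 and 1092 FPKM in Lef1 P2, and their part in the result was not tested. Against the vector control, 7 of the 8 markers were called higher in Lef1 P5 and 8 of 8 in Lef1 P2, where 1.40% and 6.49% of all genes were.

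The genes with the pattern nearest to that of Mlycd were sought by the Euclidean distance between log2 ratios against the vector control, over 9254 genes at 3 FPKM or more in all 3 libraries. The 5 nearest were Got1l1, Atp1b2, Hspb11, Tgm2 and Kdelr3, at distances of 0.307 to 0.439 log2 units. Got1l1 was at 5.42 FPKM in Lef1 P5 and 24.8 FPKM in Lef1 P2, against 10.2 FPKM in the vector control. Tgm2, the tissue transglutaminase gene, was at 5.72 FPKM in Lef1 P5 and 25.4 FPKM in Lef1 P2, against 9.95 FPKM in the vector control. Kdelr3, a receptor gene for the return of proteins to the endoplasmic reticulum, was at 24.7 FPKM in Lef1 P5 and 84.1 FPKM in Lef1 P2, against 40.3 FPKM in the vector control. The minimum leaves out genes that fall as low as Mlycd itself. With 3 FPKM asked of at least 1 library instead, a choice made after the values were seen, 10760 genes entered, and 1 of the 5 named stayed among the 5 nearest. The nearest gene then lay at 0.148, and 18 genes lay nearer than Kdelr3. Hnf4a, a nuclear receptor gene of the regulator list, was looked up by name and ranked 9 at a distance of 0.364. The genes nearer than Hnf4a are not all named here. Likeness over 3 libraries is a description only.

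Acacb (Entrez gene 100705) encodes the acetyl-CoA carboxylase of the outer mitochondrial membrane, whose malonyl-CoA acts on carnitine palmitoyltransferase 1. Its level was 3.27 FPKM (2.88 to 3.69) in Lef1 P5 and 6.04 FPKM (5.51 to 6.61) in Lef1 P2, against 4.06 FPKM (3.63 to 4.53) in the vector control. Lef1 P2 was the highest, and the intervals of Lef1 P5 and the vector control overlapped. The ratio was 1.49 (1.29 to 1.72) for Lef1 P2 against the vector control, 0.805 (0.681 to 0.952) for Lef1 P5 against the vector control and 0.541 (0.463 to 0.631) for Lef1 P5 against Lef1 P2, with no call. The related gene Acaca encodes the cytosolic carboxylase that supplies fatty acid synthesis, and it was lowest in the library where Acacb was highest. It was at 21.0 FPKM in Lef1 P5 and 12.3 FPKM in Lef1 P2, against 22.6 FPKM in the vector control, with Lef1 P2 at 0.543 (0.503 to 0.587) of the empty-vector level, which was not a call.

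Per length, the level of Acacb was 0.155 (0.136 to 0.177) of that of Acaca in Lef1 P5 and 0.492 (0.440 to 0.550) in Lef1 P2, against 0.180 (0.159 to 0.203) in the vector control. The interval of Lef1 P2 lay clear of the others, and Acacb made up 13.5% of the summed FPKM of both carboxylase genes in Lef1 P5 and 33.0% in Lef1 P2, against 15.2% in the vector control. Mlycd over Acacb, the gene that removes malonyl-CoA against the one that makes it at mitochondria, was 0.315 (0.189 to 0.497) in Lef1 P5 and 1.46 (1.21 to 1.74) in Lef1 P2, against 0.830 (0.624 to 1.09) in the vector control. These 3 intervals did not overlap. Such ratios within a library do not depend on a scaling factor between libraries, and they show unequal change without saying which gene moved.

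Cpt1a (Entrez gene 12894) encodes the liver-type carnitine palmitoyltransferase 1, the malonyl-CoA-sensitive step that limits the rate of long-chain oxidation, and Cpt2 (Entrez gene 12896) encodes the inner-membrane enzyme that restores the acyl-CoA. The start region of Cpt1a is shown beside that of Mlycd because Cpt1a had the next largest ratio in Lef1 P2 against the vector control. It lies at chr19:3323051-3323350 (GRCm38.p6, plus strand). On either strand, capitals mark the letters CCGCCC of the GC box. They also mark the CCAAT box and, as the letters that nuclear receptors bind, AGGTCA.
Cpt1a: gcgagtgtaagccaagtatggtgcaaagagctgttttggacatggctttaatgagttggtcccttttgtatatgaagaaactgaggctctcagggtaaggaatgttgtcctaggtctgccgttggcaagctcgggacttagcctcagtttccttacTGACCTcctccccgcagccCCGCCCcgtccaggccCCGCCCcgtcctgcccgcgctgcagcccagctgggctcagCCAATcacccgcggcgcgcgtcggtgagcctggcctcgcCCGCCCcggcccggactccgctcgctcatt
This window held 3 copies of CCGCCC, 1 of CCAAT at bases -19 to -15 and 1 of AGGTCA, which reads TGACCT on this strand, at -94 to -89. None of the marked copies overlapped another. CCGCCC is found in 35.7% and AGGTCA in 16.3% of all windows.

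Cpt1a was at 16.19 FPKM (14.97 to 17.5) in Lef1 P5 and 28.69 FPKM (27.0 to 30.4) in Lef1 P2, against 16.84 FPKM (15.6 to 18.2) in the vector control. Only Lef1 P2 stood apart, and the intervals of Lef1 P5 and the vector control overlapped. The ratio of Lef1 P2 to the vector control was 1.70 (1.55 to 1.88), and that of Lef1 P5 to the vector control was 0.961 (0.862 to 1.07). Cpt2 was at 9.62 FPKM (8.36 to 11.02) in Lef1 P5 and 19.05 FPKM (17.2 to 21.0) in Lef1 P2, against 12.52 FPKM (11.1 to 14.1) in the vector control. Its ratio was 1.52 (1.30 to 1.78) for Lef1 P2 against the vector control, 0.768 (0.638 to 0.924) for Lef1 P5 against the vector control and 0.505 (0.425 to 0.598) for Lef1 P5 against Lef1 P2. For Cpt1a this last ratio was 0.564 (0.512 to 0.622). Neither gene reached the 2-fold threshold on the log2(FPKM + 1) scale in any comparison, Cpt2 coming nearest at -0.92 between the Lef1 libraries.

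Slc25a20, the carrier that moves acylcarnitines across the inner membrane between these enzymes, was called higher in Lef1 P2, at 32.1 FPKM against 12.8 FPKM in the vector control (ratio 2.51, 2.13 to 2.96). In Lef1 P5 it was at 17.1 FPKM, 1.33-fold (1.11 to 1.60) the empty-vector level and not called. Crat, which makes short-chain carnitine esters, was at 4.02 FPKM in Lef1 P5 and 4.32 FPKM in Lef1 P2, against 3.12 FPKM in the vector control. Carnitine palmitoyltransferase 1 has 3 genes, compared here by RNA only, since the activity of their enzymes was not measured. Cpt1c, the form described in brain, had 49.5% of their summed FPKM in Lef1 P5 and 49.8% in Lef1 P2, against 55.1% in the vector control, and Cpt1a had 47.0% in Lef1 P5 and 43.2% in Lef1 P2, against 38.0% in the vector control. The muscle form Cpt1b was weakly expressed, at 1.20 FPKM in Lef1 P5 and 4.69 FPKM in Lef1 P2, against 3.07 FPKM in the vector control, and was called lower in Lef1 P5 against Lef1 P2 (ratio 0.256, 0.168 to 0.380). Its count was not whole in the vector control, so that level is less certain than its interval shows.

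**Figure D2:**
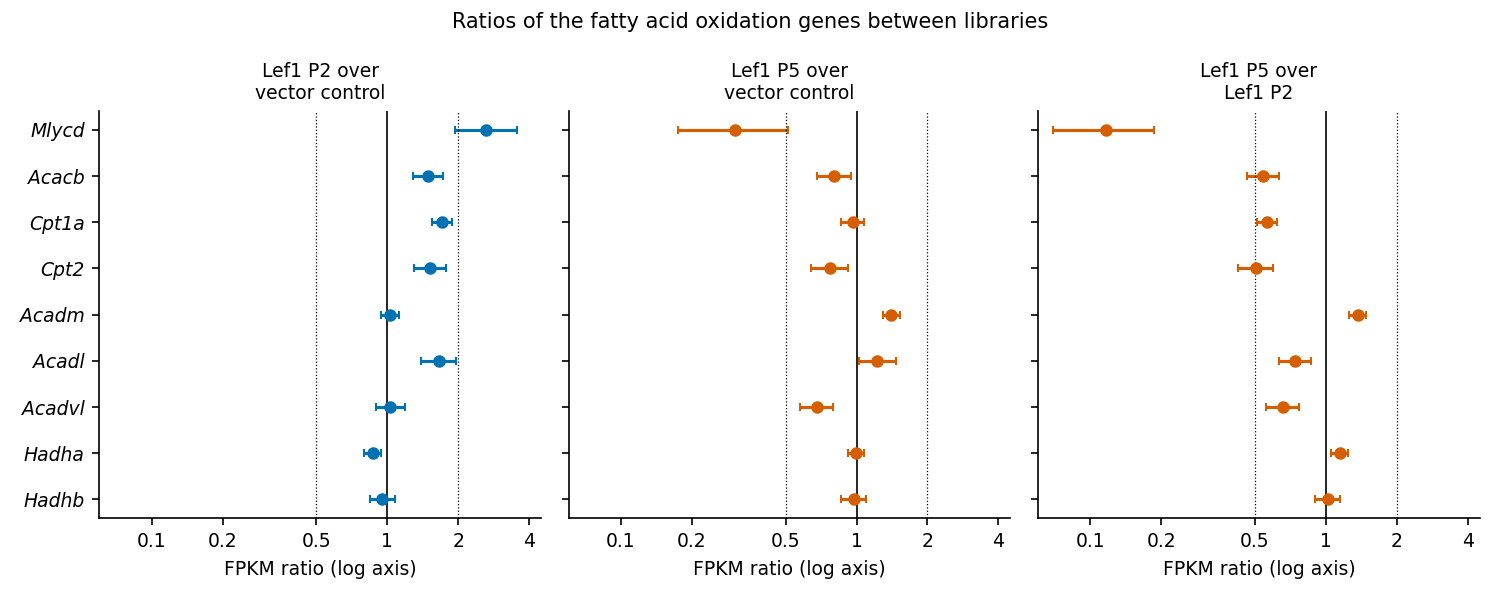
FPKM ratios of the 9 genes on log axes for Lef1 P2 over the vector control, Lef1 P5 over the vector control and Lef1 P5 over Lef1 P2. Points are ratios of the deposited values, bars 95% counting intervals, dotted lines 2-fold; Mlycd lies at 2.61, 0.306 and 0.117, and Hadhb close to 1 in each panel.

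The acyl-CoA dehydrogenases carry out the first oxidation of each round and differ in the chain length they take: Acadvl very long, Acadl long and Acadm medium chains. Acadm (Entrez gene 11364) had the highest level of the 9 genes in every library, at 72.8 FPKM (69.0 to 76.8) in Lef1 P5 and 53.28 FPKM (49.99 to 56.7) in Lef1 P2, against 51.97 FPKM (48.7 to 55.4) in the vector control. Lef1 P5 stood apart as the highest, at 1.40-fold (1.29 to 1.52) the level of the vector control and 1.37-fold (1.26 to 1.48) that of Lef1 P2. Lef1 P2 and the vector control differed by 1.03-fold (0.937 to 1.12), and the sign of that difference turned under median-of-ratios and TMM scaling (log2 -0.12 under each) but not under quantile scaling (0.11).

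Acadl (Entrez gene 11363) was at 15.63 FPKM (13.8 to 17.6) in Lef1 P5 and 21.15 FPKM (19.0 to 23.4) in Lef1 P2, against 12.78 FPKM (11.2 to 14.6) in the vector control. Lef1 P2 was again the highest, 1.65-fold (1.40 to 1.96) the level of the vector control. Acadvl (Entrez gene 11370) was at 12.97 FPKM (11.4 to 14.6) in Lef1 P5 and 19.78 FPKM (17.9 to 21.8) in Lef1 P2, against 19.16 FPKM (17.3 to 21.2) in the vector control. Here Lef1 P5 was the one apart, at 0.677 (0.576 to 0.794) of the empty-vector level and 0.656 (0.558 to 0.769) of Lef1 P2. None of the 3 dehydrogenase genes was called. Exons of Acadvl overlap those of Dvl2 on the other strand, and the labels do not say whether counting used strand. Dvl2 was at 28.5 FPKM in Lef1 P5 and 43.4 FPKM in Lef1 P2, against 32.7 FPKM in the vector control, so reads of the pair may not be fully separated.

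The proportions of the 3 genes therefore differed between libraries. Acadm over Acadvl was 5.61 (4.91 to 6.43) in Lef1 P5 and 2.69 (2.39 to 3.04) in Lef1 P2, against 2.71 (2.41 to 3.06) in the vector control, apart in Lef1 P5. Acadm over Acadl was 4.66 (4.09 to 5.32) in Lef1 P5 and 2.52 (2.23 to 2.85) in Lef1 P2, against 4.07 (3.51 to 4.73) in the vector control, apart in Lef1 P2. Acadl over Acadvl was 1.21 (1.01 to 1.43) in Lef1 P5 and 1.07 (0.924 to 1.24) in Lef1 P2, with overlapping intervals, and 0.667 (0.563 to 0.789) in the vector control. Of the FPKM summed over the 3 genes, Acadm held 71.8% in Lef1 P5 and 56.6% in Lef1 P2, against 61.9% in the vector control.

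**Figure D3:**
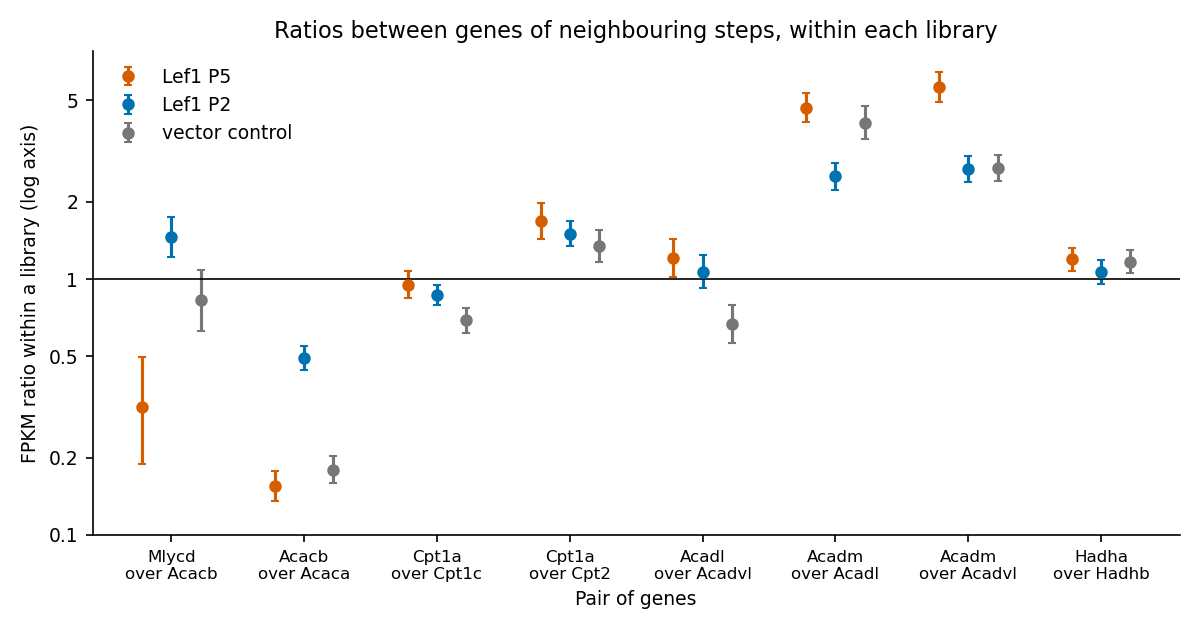
Ratios of FPKM between pairs of genes within each library, on a log axis, for Lef1 P5, Lef1 P2 and the vector control, with 95% counting intervals as bars. Acacb over Acaca stands apart in Lef1 P2 at 0.492, Acadm over Acadvl in Lef1 P5 at 5.61, and the intervals of Hadha over Hadhb overlap in all 3 libraries.

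Hadha (Entrez gene 97212) and Hadhb (Entrez gene 231086) encode the alpha and beta subunits of the mitochondrial trifunctional protein, which finishes each round on long chains. They are printed together because they start next to each other on opposite strands, with 272 bases between the starts in GRCm38.p6. The windows are chr5:30154931-30155230 on the minus strand and chr5:30155003-30155302 on the plus strand, and 228 bases are common to both, read from opposite strands. Capitals mark CCGCCC on either strand.
Hadha: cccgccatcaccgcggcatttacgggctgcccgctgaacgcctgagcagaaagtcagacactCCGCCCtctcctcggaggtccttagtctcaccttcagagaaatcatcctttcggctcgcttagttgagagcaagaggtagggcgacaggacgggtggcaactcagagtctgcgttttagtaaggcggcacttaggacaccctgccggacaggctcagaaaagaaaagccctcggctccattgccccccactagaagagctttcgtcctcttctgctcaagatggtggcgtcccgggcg
Hadhb: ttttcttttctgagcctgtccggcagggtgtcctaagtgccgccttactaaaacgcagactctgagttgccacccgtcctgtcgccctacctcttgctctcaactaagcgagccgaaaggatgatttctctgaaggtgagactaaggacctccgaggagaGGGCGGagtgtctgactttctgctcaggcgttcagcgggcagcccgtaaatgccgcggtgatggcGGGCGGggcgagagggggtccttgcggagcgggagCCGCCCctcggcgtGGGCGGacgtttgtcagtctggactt
CCGCCC occurred 1 time in the Hadha window and 4 times in the Hadhb window, and the copy of Hadha lies in the shared bases.

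Hadha was at 34.67 FPKM (32.8 to 36.7) in Lef1 P5 and 30.27 FPKM (28.5 to 32.2) in Lef1 P2, against 34.89 FPKM (33.0 to 36.9) in the vector control. Lef1 P2 was the lowest, at 0.868 (0.798 to 0.943) of the vector control, while Lef1 P5 was at 0.994 (0.917 to 1.08). Hadhb was at 29.03 FPKM (26.6 to 31.6) in Lef1 P5 and 28.51 FPKM (26.1 to 31.1) in Lef1 P2, against 29.88 FPKM (27.4 to 32.5) in the vector control, with overlapping intervals throughout. Hadha over Hadhb was 1.19 (1.08 to 1.32) in Lef1 P5 and 1.06 (0.955 to 1.18) in Lef1 P2, against 1.17 (1.06 to 1.29) in the vector control, with overlapping intervals. Exons of Hadha overlap those of Garem2 on the other strand, a gene at 1.55 FPKM in Lef1 P5 and 1.30 FPKM in Lef1 P2, against 1.69 FPKM in the vector control.

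Ordered by level, Acadm and Hadha led in every library, and Acacb and Mlycd came last. Acacb was above Mlycd in Lef1 P5 and in the vector control, and below it in Lef1 P2, but the intervals of the pair overlapped in the vector control. Cpt1a and Hadha could not be ordered beyond counting error in Lef1 P2, nor could Cpt1a and Acadl in Lef1 P5 or Cpt1a and Acadvl in the vector control. Among all measured genes, Mlycd stood at percentile 9.01 of level in Lef1 P5 and 43.1 in Lef1 P2, against 26.1 in the vector control, and Acadm at 91.6 in Lef1 P5 and 88.7 in Lef1 P2, against 87.7 in the vector control.

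Over the 9 genes the median log2 ratio on the FPKM + 1 scale was 0.48 in Lef1 P2 against the vector control, beside 0.11 over all measured genes. It was -0.05 beside -0.02 in Lef1 P5 against the vector control, and -0.57 beside -0.17 in Lef1 P5 against Lef1 P2. With the fold threshold at 1.5, Mlycd, Cpt1a and Acadl were higher in Lef1 P2 against the vector control, 3 of 9 higher and 0 lower where 17.5% of all genes were higher and 8.03% lower. Mlycd was then the 1 member lower in Lef1 P5 against the vector control, where 5.95% of all genes were lower and 4.31% higher. In Lef1 P5 against Lef1 P2, 4 of 9 members (Mlycd, Acacb, Cpt1a and Cpt2) were lower, where 19.98% of all genes were lower and 7.98% higher. Within the 9, the counting interval of the ratio excluded 1 for 5 higher and 1 lower genes in Lef1 P2 against the vector control, where it did so for 41.00% higher and 27.2% lower of the 10651 genes with enough reads. In Lef1 P5 against the vector control it did so for 2 higher and 4 lower of the 9, beside 23.1% higher and 27.96% lower of 10121 genes. In Lef1 P5 against Lef1 P2 it did so for 2 higher and 6 lower of the 9, beside 25.8% higher and 44.97% lower of 10593 genes.

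The rest of the pathway was read from 10 lists, whose counts and medians include any of the 9 genes that belong to them. Over all genes, 6.49% were called higher and 1.82% lower in Lef1 P2 against the vector control. The shares were 1.40% and 1.28% in Lef1 P5 against the vector control, and 1.88% and 6.86% in Lef1 P5 against Lef1 P2. In the list of mitochondrial beta-oxidation 0 of 18 measured genes were called in any of the 3 comparisons as deposited. Its median log2 ratio was 0.06 in Lef1 P2 against the vector control, 0.02 in Lef1 P5 against the vector control and -0.15 in Lef1 P5 against Lef1 P2, beside 0.11, -0.02 and -0.17 over all genes. Acaa2, the thiolase that ends each round on shorter chains, was at 43.0 FPKM in Lef1 P5 and 23.2 FPKM in Lef1 P2, against 31.9 FPKM in the vector control, lowest in Lef1 P2 as Hadha was. Its log2 ratio in Lef1 P5 against Lef1 P2 was 0.86 as deposited, and it was called higher there under median-of-ratios (1.06) and TMM scaling (1.04). Acads, for the short-chain dehydrogenase, was at 32.4 FPKM in Lef1 P5 and 38.5 FPKM in Lef1 P2, against 34.2 FPKM in the vector control. Echs1, an enoyl-CoA hydratase gene, was at 62.2 FPKM in Lef1 P5 and 57.8 FPKM in Lef1 P2, against 66.97 FPKM in the vector control. Hadh, a hydroxyacyl-CoA dehydrogenase gene, was at 53.3 FPKM in Lef1 P5 and 66.6 FPKM in Lef1 P2, against 49.95 FPKM in the vector control, a ratio of 1.33 (1.22 to 1.46) for Lef1 P2 against the vector control.

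In the carnitine shuttle list 1 of 10 measured genes was higher and 0 lower in Lef1 P2 against the vector control (Slc25a20, list median 0.48). In Lef1 P5, 0 were called against the vector control (list median 0.05), and 1 was lower against Lef1 P2 (Cpt1b, list median -0.64). Without Cpt1a and Cpt2 these medians were 0.46, 0.17 and -0.39. The list of malonyl-CoA and AMPK genes had 2 of 14 measured genes higher and 0 lower in Lef1 P2 against the vector control (median 0.51). In Lef1 P5 against the vector control, 0 were higher and 1 lower (median -0.04). Against Lef1 P2, Lef1 P5 had 0 higher and 2 lower (median -0.45). Mlycd was among these calls in each comparison. Without Mlycd and Acacb, 1 of 12 genes was higher, 0 were called and 1 was lower, in the same order. The medians were then 0.51, 0.07 and -0.41. AMPK is the energy-sensing kinase that inactivates the carboxylases. Its beta subunit gene Prkab2 was called higher in Lef1 P2, at 7.75 FPKM against 3 FPKM in the vector control, and was at 4.18 FPKM in Lef1 P5. Its log2 ratio of 1.13 in Lef1 P2 against the vector control was 0.99 under median-of-ratios, just under 2-fold under TMM and 0.90 under quantile scaling, so the call was lost under each. The catalytic subunit gene Prkaa2 was called lower in Lef1 P5, at 4.39 FPKM against 10.2 FPKM in Lef1 P2, and was at 6.85 FPKM in the vector control. That call was also lost under each scaling, with a log2 ratio of -1.05 as deposited, -0.87 under median-of-ratios, -0.89 under TMM and -0.78 under quantile scaling. The other catalytic gene Prkaa1 was at 8.49 FPKM in Lef1 P5 and 12.4 FPKM in Lef1 P2, against 8.35 FPKM in the vector control.

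Among 12 measured genes for uptake and activation of fatty acids, the cytosolic fatty acid carrier Fabp3 and the transporter Slc27a2 were called, in opposite directions. Fabp3 was at 135 FPKM in Lef1 P5 and 549 FPKM in Lef1 P2, against 165 FPKM in the vector control, higher in Lef1 P2 against the vector control (ratio 3.33, 3.09 to 3.58) and lower in Lef1 P5 against Lef1 P2. Slc27a2 was at 5.71 FPKM in Lef1 P5 and 1.94 FPKM in Lef1 P2, against 8.80 FPKM in the vector control, lower in Lef1 P2 against the vector control (ratio 0.2205, 0.1525 to 0.312) and higher in Lef1 P5 against Lef1 P2. Neither was called in Lef1 P5 against the vector control. The list's median was 0.24 in Lef1 P2 against the vector control, 0.18 in Lef1 P5 against the vector control and -0.07 in Lef1 P5 against Lef1 P2.

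Peroxisomes shorten very long chains. Over the 16 measured genes of peroxisomal oxidation the median log2 ratio was 0.46 in Lef1 P2 against the vector control, 0.11 in Lef1 P5 against the vector control and -0.37 in Lef1 P5 against Lef1 P2. The oxidase gene Acox3 was called higher in Lef1 P2, at 11.35 FPKM against 3.89 FPKM in the vector control. In the ketone body list of 4 measured genes 0 were called against the vector control at either passage as deposited, and Bdh1 was called lower in Lef1 P2 under quantile scaling (log2 -1.07, against -0.84 as deposited). Bdh1, the hydroxybutyrate dehydrogenase gene, was called higher at 13.3 FPKM in Lef1 P5 against 6.14 FPKM in Lef1 P2, and was at 11.8 FPKM in the vector control. Acat1, the acetoacetyl-CoA thiolase gene, was called lower at 5.39 FPKM in Lef1 P5 against 12.04 FPKM in Lef1 P2, and was at 7.74 FPKM in the vector control. The Acat1 call was lost under each scaling, with a log2 ratio of -1.03 as deposited, -0.85 under median-of-ratios, -0.87 under TMM and -0.79 under quantile scaling. The ketone body medians were 0.37 in Lef1 P2 against the vector control, 0.07 in Lef1 P5 against the vector control and -0.07 in Lef1 P5 against Lef1 P2. The 4 propionyl-CoA genes had no call in these comparisons, with medians of -0.29, -0.17 and 0.04.

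Of the regulators known to switch these genes on in liver and muscle, Ppara and Ppargc1a were scarce. Ppara was at 0.13 FPKM in Lef1 P5 and 0.28 FPKM in Lef1 P2, against 0.26 FPKM in the vector control, and the coactivator gene Ppargc1a was listed in the vector control only, from 1 read. The related receptor gene Ppard was at 13.96 FPKM in Lef1 P5 and 16.4 FPKM in Lef1 P2, against 17.8 FPKM in the vector control. Of 11 measured regulators 0 were called against the vector control at either passage (medians -0.11 and -0.28), and 1 was lower in Lef1 P5 against Lef1 P2 (median -0.16). It was Hnf4a, a nuclear receptor of liver and visceral endoderm, at 0.59 FPKM in Lef1 P5 and 4.55 FPKM in Lef1 P2, against 2.13 FPKM in the vector control. Among 8 measured genes listed as PPAR targets, Vnn1 and the lipid droplet protein gene Plin2 were higher and Acot1 lower in Lef1 P2 against the vector control (median 0.23). Vnn1, which makes pantothenate, the precursor of coenzyme A, was at 4.19 FPKM in Lef1 P5 and 12.7 FPKM in Lef1 P2, against 0.41 FPKM in the vector control and was called higher in both Lef1 libraries against the vector control. Plin2 was at 17.1 FPKM in Lef1 P5 and 25.4 FPKM in Lef1 P2, against 10.8 FPKM in the vector control. Acot1, a thioesterase gene whose counts were not whole, was at 12.9 FPKM in Lef1 P5 and 18.4 FPKM in Lef1 P2, against 41.3 FPKM in the vector control, and was called lower in both Lef1 libraries. The list's median was -0.02 in Lef1 P5 against the vector control, with 1 higher and 1 lower, and -0.52 in Lef1 P5 against Lef1 P2, with Vnn1 lower.

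Of 9 measured genes of lipid droplets and lipolysis, the monoglyceride lipase gene Mgll was higher in Lef1 P2, at 5.81 FPKM against 0.37 FPKM in the vector control (list median 0.20). Abhd5, the activator of the lipase that opens triglycerides, was lower in Lef1 P5, at 2.61 FPKM against 8.15 FPKM in Lef1 P2 (list median -0.36) and 6.72 FPKM in the vector control (list median -0.21). Mgll, at 1.79 FPKM in Lef1 P5, was also called lower there than in Lef1 P2 (log2 -1.29), though not under quantile scaling (-0.96). Fabp3, Slc25a20, Vnn1 and Mgll were highest in Lef1 P2, as were 51.5% of all measured genes. Among other called genes of the lists, Slc27a2 and Acot1 were highest in the vector control and Bdh1 in Lef1 P5. The summed primitive endoderm markers were also highest in Lef1 P2 (292 FPKM in Lef1 P5 and 1092 FPKM in Lef1 P2, against 82.2 FPKM in the vector control). Their part in these differences was not tested.

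**Figure D4:**
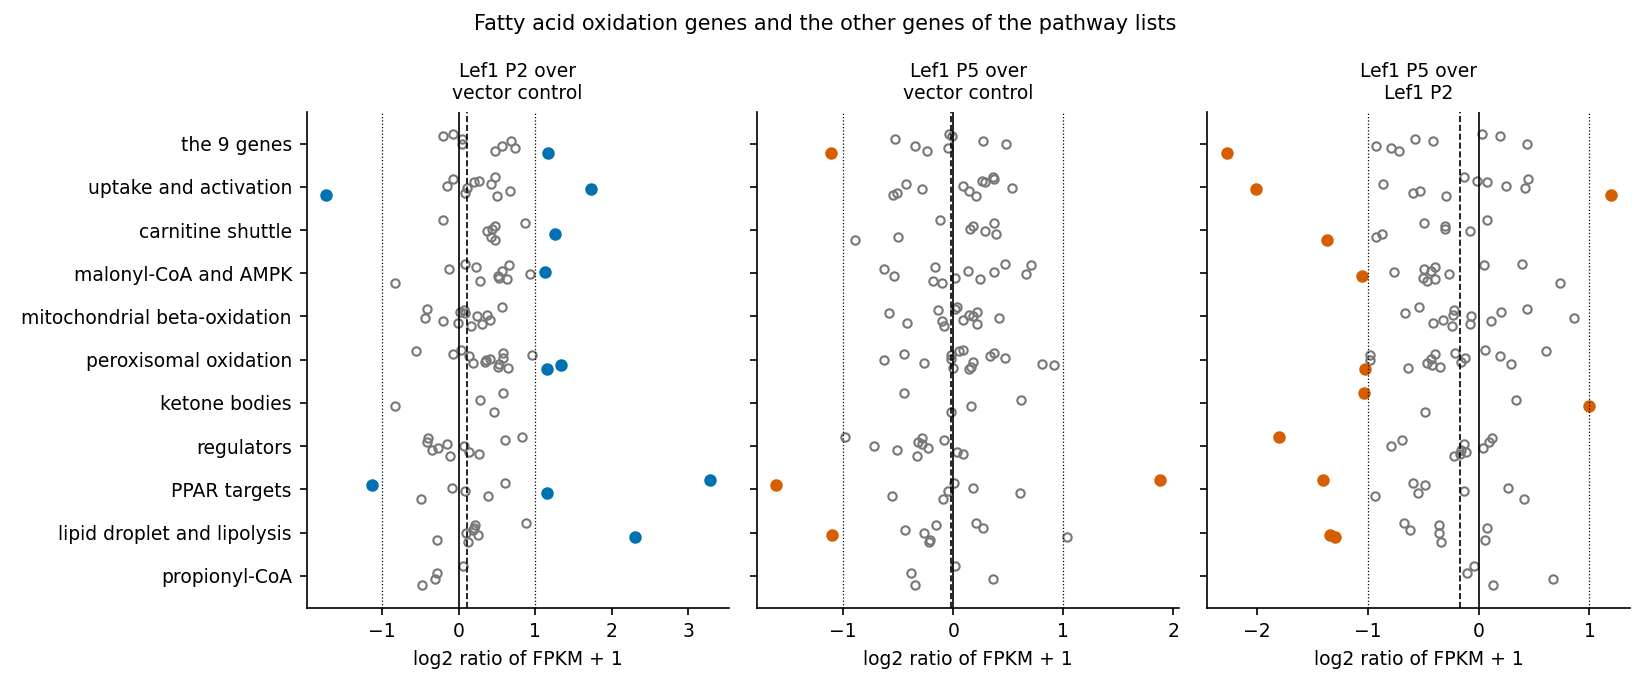
Log2 ratios of FPKM + 1 for the 9 genes and for the other measured genes of the 10 pathway lists, in Lef1 P2 over the vector control, Lef1 P5 over the vector control and Lef1 P5 over Lef1 P2. Each point is a gene, filled where called; dotted lines mark 2-fold and the dashed line the median of all measured genes. The row of mitochondrial beta-oxidation holds no filled point.

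In the start windows of all 9 genes, both strands were searched for short motifs. The PPAR/RXR direct repeat, a pair of AGGTCA copies with any single base between them, was found in 0 of 9, and in 0.0396% of all 32851 windows. The TCF/LEF letters ATCAAAG were found in 0 of 9 and in 3.73% of all windows. The E-box CACGTG was found in 0 of 9 against 7.15%, and the NRF1 palindrome, GCGCA joined to its own reverse complement, in 0 of 9 against 0.971%. The letters of estrogen-related receptors, TCAAGGTCA, were found in 0 of 9 against 0.423%. The GC box CCGCCC was found in 5 of 9 (Cpt1a, Cpt2, Acadl, Hadha and Hadhb) against 35.7%. The copy of Hadha is also the Hadhb copy at -90 to -85, so the same site counts for both genes. These 5 windows were 57.3% to 70.3% G and C, against a median of 52.7% over all windows. The letters AGGTCA alone were found in 4 of 9 (Acacb, Cpt1a, Acadm and Acadvl) against 16.3%, and the CCAAT box in 3 of 9 (Mlycd, Acacb and Cpt1a) against 37.4%. The searches for AGGTCA alone and for CCAAT were added after the windows were read. The window used for Acacb lies inside the longer gene record of RefSeq, which starts upstream of it, so it is not the only start of that gene.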

How the data were processed

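Total RNA of 3 mouse embryonic stem cell cultures was sequenced, 1 library per group. Per the file headers, each deposited table gives an expected count, a transcript length (in bases) and an FPKM value for each Entrez gene. The submitters' processing notes name Bowtie 0.12.2 and the build mm8; the counting program and its strand setting are not stated there or in the labels. The deposited expected counts were whole for all 9 genes in all libraries. The tables hold only values above 0, and a missing gene was taken as 0. Symbols came from RefSeq GRCm38.p6 for 17951 of 17997 gene numbers, and start windows from the same build. FPKM values deposited by the authors were used unchanged, with a pseudocount of 1 for log2 ratios. Intervals are exact Poisson intervals of the counts, and for ratios exact conditional intervals (Python 3.11.15, scipy 1.17.1). They were checked on simulated Poisson counts, which tests the code and not the spread between libraries. TMM factors came from edgeR 4.0.16 on rounded counts, used for scaling only. Intervals cover counting error only, since amplified reads without molecular identifiers may be copies, and 3 reads on 1 kb equal 0.320 to 0.327 FPKM. The genes and lists were chosen with earlier results of these data known. Named were the 9 genes, 12 fixed pathway genes, up to 3 highest and 3 lowest called genes per list, and the 5 nearest to Mlycd; Cpt1b, Cpt1c, Dvl2 and Garem2 values beyond this were added after they were seen. A result on 1 further gene of the peroxisomal list is not reported here.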

Additional observations from a re-analysis of the deposited data

Results flagged for a closer look

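Mlycd was called in opposite directions against the same empty-vector library. Its log2 ratio of FPKM + 1 was -1.11 in Lef1 P5 and 1.17 in Lef1 P2, each against the vector control. The difference was not tested, since each group has 1 library, and passage differs as well as Lef1 in the first of these. No other gene of the pathway lists was called in opposite directions in these comparisons.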

How the results depend on the processing

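In each comparison 1 of the 9 genes was called, Mlycd. With a pseudocount of 5 the count was 0 in Lef1 P2 against the vector control and 0 in Lef1 P5 against the vector control, and still 1 in Lef1 P5 against Lef1 P2. It was 0 in all 3 comparisons with a minimum of 10 FPKM, which Mlycd does not reach in any library. Quantile scaling gave 0 in Lef1 P2 against the vector control. A fold threshold of 4 gave 0 in both comparisons with the vector control, and a threshold of 1.5 gave 3 in Lef1 P2 against the vector control and 4 in Lef1 P5 against Lef1 P2. The other alternatives (pseudocount of 0.1, minimum of 1 FPKM or none, median-of-ratios, TMM, 1 length per gene, CPM, non-overlapping counting intervals) kept the count at 1, with Mlycd as the gene. Its log2 ratio ran from 0.72 to 1.36 in Lef1 P2 against the vector control, from -1.62 to -0.47 in Lef1 P5 against the vector control and from -2.98 to -1.20 in Lef1 P5 against Lef1 P2, with no change of sign. Of 189 log2 ratios of the 9 genes under alternatives, 171 moved by less than the distance from the middle to an end of their log2 counting interval. The other 18 moved by more, mostly under median-of-ratios (7) and TMM (6). Over all genes, the calls ranged from 115 to 2719, from 24 to 1038 and from 47 to 2961 between the fold thresholds of 4 and 1.5, beside 885, 272 and 926 at 2-fold. No paired analysis was possible because each group has 1 library, and no library could be left out for the same reason. The depth limits Mlycd most, with 20 reads in Lef1 P5.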
